A study of Saccharomyces cerevisiae with 9 samples.

Results

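The pyrimidine synthesis genes of budding yeast, Saccharomyces cerevisiae, were followed in 5 strains of which BY4716 alone carried URA3. The set held 10 genes, URA1, URA2, URA3, URA4, URA5, URA6, URA7, URA8, URA10 and PPR1, chosen by name among the 6256 genes on the array. All 10 were among the 5865 genes tested, which had a signal well above background, in Cy5 or in Cy3, on 3 or more of 9 arrays. Transcript levels came from 9 arrays with 2 colours, with 3 for each of BY4716 and RM11-1a and a single array for YAD350, for YLK804 and for YLK806.

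BY4716 is a laboratory strain and RM11-1a descends from a vineyard isolate. YAD350 carried the MKT1 replacement D30G in the laboratory background BY4742. YLK804 was made from the laboratory strain BY4724 and held SAL1 from RM11-1a, and YLK806 was RM11-1a with SAL1 from BY. The absence of URA3 from RM11-1a, BY4742 and BY4724 is known from the genotypes of these strains and is not given in the labels. All 5 strains, BY4716 included, grew in minimal medium with 2% glucose, uracil at 20 mg/L, and leucine and lysine at 100 mg/L each, with histidine added at 20 mg/L for YAD350, so uracil was supplied to all strains alike. BY4716 was not the direct parent of any strain without URA3, so each comparison with it also carries the other differences of that strain. YAD350, YLK804 and YLK806 rested on 1 array each and were assumed to vary like the parental arrays.

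Yeast makes pyrimidine nucleotides from glutamine, bicarbonate and aspartate by a short chain of enzymes that ends in UMP, from which UTP and CTP are made. Ura2 starts the chain and is inhibited by UTP. Ura4 and Ura1 make and oxidise dihydroorotate, Ura5 and Ura10 attach orotate to a ribose phosphate, and Ura3 removes a carboxyl group to give UMP. Ppr1 is a zinc cluster activator that binds upstream of pathway genes, URA1, URA3 and URA4 among them, and intermediates made before the Ura3 step stimulate it. A strain without URA3 cannot make UMP by this route and lives on uracil taken up from the medium.

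The URA3 signal followed the strain genotypes. Values are log2 ratios of the strain, in Cy5, over a common reference, in Cy3, pooled from BY4716 and RM11-1a RNA of glucose and ethanol cultures. URA3, the deleted step, stood at 1.40, 1.38 and 1.35 in BY4716, and at -2.42, -2.42 and -2.63 in RM11-1a. YAD350 read -2.89, YLK804 -3.47 and YLK806 -3.04. The Cy5 signal on the 6 arrays of strains without URA3 was between 41.6 and 47.1 over local backgrounds between 24.5 and 29, and on 2 of the 3 RM11-1a arrays it was not well above background. Differences of URA3 among these 6 arrays therefore lie near the floor of the measurement. Of the marker genes URA3, LEU2, LYS2 and HIS3, URA3 was the marker low in all 4 other strains and high in BY4716. STE2, the pheromone receptor of MATa cells, was low in YAD350 and BY4716 and high in the other 3 strains, so mating type did not divide the strains as URA3 did. Labels of the arrays of YAD350, YLK804 and YLK806 disagree on the dye of the strain. The strain was read as Cy5 on them because their ratios correlated with the background parent across genes, with r = 0.806, 0.878 and 0.886.

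**Figure D1:**
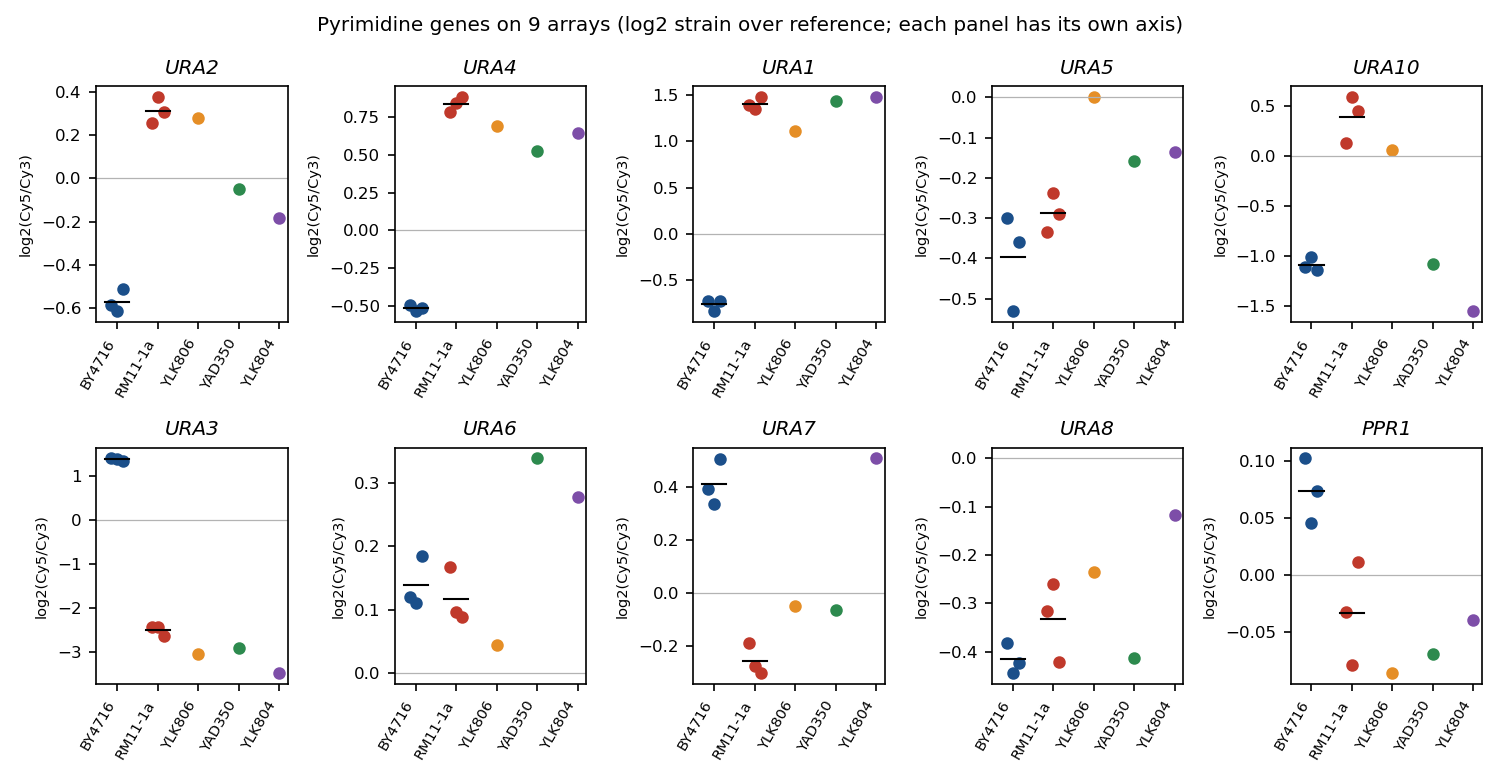
Each panel plots the log2 ratio of strain over reference for 1 gene, with 1 point per array and a line at the mean of the strains with 3 arrays, on its own vertical axis. URA2, URA4 and URA1 sit lower on all 3 BY4716 arrays than on any of the 6 arrays of strains without URA3, whereas URA10 separates RM11-1a and YLK806 from the other 3 strains.

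URA1, URA4 and URA2, which encode enzymes of the chain up to orotate, were higher in each of the 4 strains without URA3 than in BY4716. On the mean of the 4 strains, each weighted equally, the difference was 2.11 ± 0.05 (SE) for URA1, 1.19 ± 0.03 for URA4 and 0.66 ± 0.04 for URA2 on the log2 scale. The adjusted p values from limma were 1.2e-07, 5.2e-07 and 2.0e-05. Of all genes tested, 3.45% were called higher in each of the 4 strains, that is with a Benjamini-Hochberg adjusted p under 0.05. By size of the mean rise, URA1 ranked at 11, URA4 at 56 and URA2 at 234 of 5848 genes. The labels do not tell whether arrays of BY4716, or of RM11-1a, came from different cultures. The p-values thus cover only the array-to-array spread, which may be technical. All comparisons with BY4716 share its 3 arrays.

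URA1 encodes the dihydroorotate dehydrogenase, which makes orotate. Its log2 ratio was -0.72, -0.83 and -0.72 on the arrays of BY4716. On those of RM11-1a it was 1.38, 1.35 and 1.48, and it was 1.43 in YAD350, 1.47 in YLK804 and 1.11 in YLK806. No array of a strain without URA3 came near the BY4716 values. Among strains without URA3, the RM strains differed from the laboratory strains by -0.20 ± 0.06 (SE, adjusted p = 0.019), a call lost with scaling between arrays, at -0.08 (adjusted p = 0.32). The transcript was 4.47-fold higher in RM11-1a than in BY4716, 4.55-fold in YAD350, 4.70-fold in YLK804 and 3.64-fold in YLK806. The order of the levels ran from BY4716 through YLK806 to RM11-1a, YAD350 and YLK804, and no pair of the last 3 differed, with adjusted p from 0.41 to 0.77. YLK806 was lower than RM11-1a by 0.30 ± 0.07 (SE, adjusted p = 0.026). That call was lost with the deposited ratios, at -0.31 (adjusted p = 0.052), and with scaling between arrays, at -0.12 (adjusted p = 0.28).

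URA4 encodes the dihydroorotase, which closes the pyrimidine ring and supplies the substrate of Ura1. Its log2 ratio was -0.50, -0.54 and -0.51 in BY4716, 0.78, 0.85 and 0.89 in RM11-1a, 0.69 in YLK806, 0.53 in YAD350 and 0.65 in YLK804. The 3 BY4716 values lay within a narrow band, and the 6 others were all above them. The differences from BY4716 were 1.36 ± 0.04 in RM11-1a, 1.21 ± 0.05 in YLK806, 1.04 ± 0.05 in YAD350 and 1.16 ± 0.05 in YLK804 (SE), with adjusted p of 5.9e-05 or below. On the ratio scale YAD350 and YLK804 were lower than RM11-1a, by 0.31 and 0.19 in log2 (adjusted p = 0.0025 and 0.018). The Cy5 signal of URA4 differed from BY4716 by 1.42 in RM11-1a, 1.23 in YAD350 and 1.44 in YLK804. The reference channel was higher than in BY4716 by 0.06, 0.18 and 0.27 in the same order. YLK806 did not differ detectably from any of the other 3 strains without URA3, with adjusted p from 0.093 to 0.62.

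URA2 encodes the large protein that carries out the opening steps, carbamoyl phosphate synthesis and aspartate transcarbamylation. It was at -0.58, -0.62 and -0.51 in BY4716, at 0.25, 0.38 and 0.31 in RM11-1a, at -0.05 in YAD350, at -0.18 in YLK804 and at 0.28 in YLK806. Its levels formed 3 steps, with BY4716 lowest, the laboratory strains without URA3 in the middle and the RM strains highest. The difference from BY4716 was 0.88 ± 0.05 in RM11-1a and 0.85 ± 0.07 in YLK806, against 0.52 ± 0.07 in YAD350 and 0.39 ± 0.07 in YLK804 (SE). Within the strains without URA3, the mean of the RM strains exceeded the mean of the laboratory strains by 0.41 ± 0.05 (adjusted p = 0.00043). YLK804 and YAD350 did not differ detectably (adjusted p = 0.26), nor did YLK806 and RM11-1a (adjusted p = 0.72). In the Cy5 channel alone the rise in YAD350 was 0.19 and missed the threshold (adjusted p = 0.052), and the reference channel of that array was at -0.30 relative to BY4716 on the log2 scale.

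**Figure D2:**
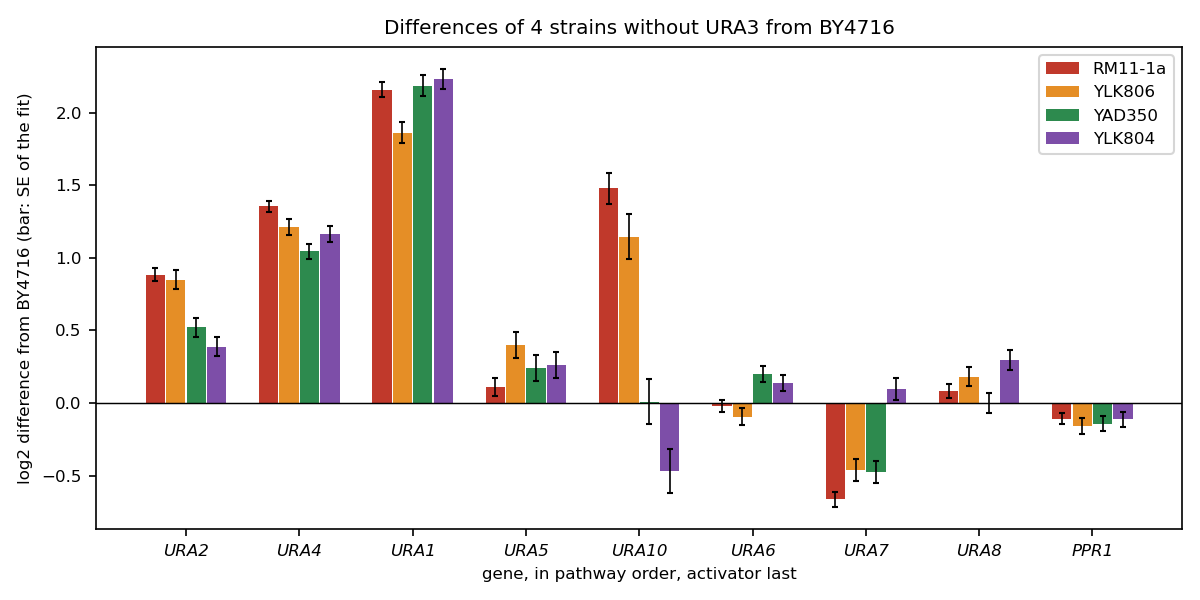
Bars give the log2 difference of each strain without URA3 from BY4716 for 9 genes in pathway order with the activator last, and error bars give the SE of the fit. URA3 itself is left out because its scale would hide the others. URA1 rises by 1.86 to 2.23 in all 4 strains, whereas URA10 rises in RM11-1a and YLK806 and not in YAD350 or YLK804.

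The 2 genes for orotate phosphoribosyltransferase, the step between Ura1 and Ura3, differed from each other. URA5, for the major enzyme, changed little. URA10, for the minor enzyme, followed the strain background on the ratio scale. Each gene has a probe of its own, and cross-hybridisation between them was not checked.

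URA5 was at -0.30, -0.53 and -0.36 in BY4716, at -0.33, -0.24 and -0.29 in RM11-1a, at -0.16 in YAD350, at -0.14 in YLK804 and at 0.00 in YLK806. The BY4716 values overlapped those of RM11-1a. The difference from BY4716 was called in YLK806 alone, at 0.40 ± 0.09 (SE, adjusted p = 0.0064), where it missed the threshold with median centring and in the Cy5 channel alone (adjusted p = 0.062 and 0.18). It was 0.11 with a 95% interval from -0.04 to 0.26 in RM11-1a. The mean over the 4 strains was 0.25 ± 0.06 (adjusted p = 0.0066). It missed the threshold with median centring, at 0.15 (adjusted p = 0.10), and was -0.02 in the Cy5 channel alone.

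URA10 was at -1.11, -1.01 and -1.14 in BY4716, at -1.08 in YAD350 and at -1.55 in YLK804. It was at 0.13, 0.60 and 0.45 in RM11-1a and at 0.06 in YLK806. The 3 laboratory strains, with and without URA3, lay apart from the RM strains. Its difference from BY4716 was 1.48 ± 0.11 in RM11-1a and 1.14 ± 0.15 in YLK806 (SE, adjusted p = 2.0e-05 and 6.0e-04). It was 0.01 in YAD350, with a 95% interval from -0.35 to 0.37, and -0.47 in YLK804, with an interval from -0.83 to -0.11 and adjusted p = 0.071. The RM strains exceeded the laboratory strains without URA3 by 1.54 ± 0.12 (adjusted p = 4.0e-05). The mean over all 4 strains, 0.54 ± 0.10, averages these unlike strains, and it was 0.90 with the deposited ratios and 1.00 in the Cy5 channel alone. URA10 was dim, with 1 spot per array. The reference channel was higher by 0.38, 0.59 and 0.57 on the log2 scale in YAD350, YLK804 and YLK806 than in BY4716, and by 0.10 in RM11-1a, and its part in the URA10 values was not tested. In the Cy5 channel alone the YLK804 value was 0.23 in place of -0.47. The Cy5 signal of YAD350 differed from BY4716 by 0.39. In that channel all arrays of strains without URA3 lay above those of BY4716. Without RM11-1a replicate 7 or 9 the YLK804 difference stayed at -0.47, because no RM11-1a array enters it. Only its SE fell, from 0.155 to 0.078 and 0.12, so it passed the threshold (adjusted p = 0.0080 and 0.035). That change tells nothing about the level in YLK804 or BY4716. Without replicate 7 URA10 was lower in YLK806 than in RM11-1a, at -0.46 (adjusted p = 0.012) against -0.33 (adjusted p = 0.16) with all arrays.

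**Figure D3:**
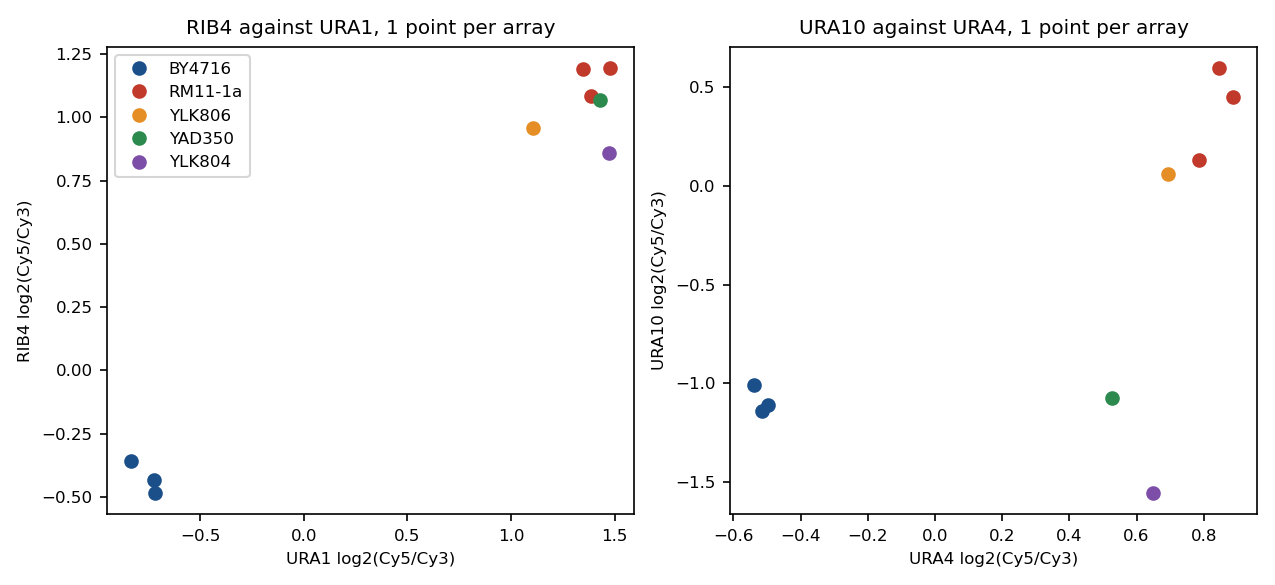
Each point is 1 array, plotted by log2 ratios of strain over reference, with RIB4 against URA1 on the left and URA10 against URA4 on the right. RIB4 is high wherever URA1 is high, whereas YAD350 and YLK804 combine a high URA4 with a URA10 level of -1.08 and -1.55.

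Past the missing step, the kinase gene and the CTP synthetase genes showed no common direction. URA6 encodes the kinase that makes UDP from UMP. It was at 0.12, 0.11 and 0.18 in BY4716, at 0.17, 0.10 and 0.09 in RM11-1a, at 0.34 in YAD350, at 0.28 in YLK804 and at 0.04 in YLK806. It was higher in YAD350 than in BY4716 by 0.20 ± 0.06 (SE, adjusted p = 0.022). That call was lost with the sign kept under 5 of 17 alternatives. It was also lost in the Cy5 channel alone, where the value was -0.05 (adjusted p = 0.75). The mean over the 4 strains was 0.06 with a 95% interval from -0.03 to 0.14.

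URA7 encodes the major CTP synthetase. It was at 0.39, 0.34 and 0.50 in BY4716, at -0.19, -0.27 and -0.30 in RM11-1a, at -0.06 in YAD350, at 0.51 in YLK804 and at -0.05 in YLK806. YLK804 stood with BY4716, and the other 3 strains lay below both. The difference from BY4716 was -0.66 ± 0.05 in RM11-1a, -0.47 ± 0.08 in YAD350 and -0.46 ± 0.08 in YLK806 (SE, adjusted p = 0.0024 or below). In YLK804 it was 0.10, with a 95% interval from -0.08 to 0.27. YLK804 exceeded YAD350 by 0.57 ± 0.09 (adjusted p = 0.0096), so the laboratory strains without URA3 were not alike for this gene.

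URA8 encodes the minor CTP synthetase. It was at -0.38, -0.44 and -0.42 in BY4716, at -0.32, -0.26 and -0.42 in RM11-1a, at -0.41 in YAD350, at -0.12 in YLK804 and at -0.23 in YLK806. It was called in YLK804 alone among the 4 strains, at 0.30 ± 0.07 (SE, adjusted p = 0.023). The mean difference of 0.14 ± 0.04 (adjusted p = 0.025) was lost under 6 of 17 alternatives, and the YLK804 call under 6 of 17 as well.

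PPR1, the activator gene, was called higher in no strain on the ratio scale, although in the Cy5 channel alone it was higher by 0.21 in YLK806 (adjusted p = 0.015). It was at 0.10, 0.05 and 0.07 in BY4716, at -0.03, -0.08 and 0.01 in RM11-1a, at -0.07 in YAD350, at -0.04 in YLK804 and at -0.09 in YLK806. All 6 arrays of strains without URA3 lay below the 3 of BY4716, but by little. The mean difference was -0.13 ± 0.03 (SE, adjusted p = 0.013), a 1.09-fold lower level, and 45.8% of genes had a smaller mean difference in size. It was called in RM11-1a, at -0.11 (adjusted p = 0.039), and in YLK806, at -0.16 (adjusted p = 0.035), and missed the threshold in YAD350 and YLK804 (adjusted p = 0.061 and 0.17). The RM11-1a call was lost under 9 of 17 alternatives, with adjusted p up to 0.45, and the YLK806 call under 5 of 17. The sign in YLK806 was reversed under 1 more, the Cy5 channel alone. PPR1 was dim, with Cy5 signals between 63.5 and 114 over backgrounds between 25 and 34. The direction did not hold in the Cy5 channel alone, where the mean difference was 0.04, and with median centring in place of loess it was -0.04 (adjusted p = 0.38). On the ratio scale the activator gene was thus at -0.13 in the mean difference. URA1 and URA4, which are among its target genes but not all of them, were at 2.11 and 1.19.

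**Figure D4:**
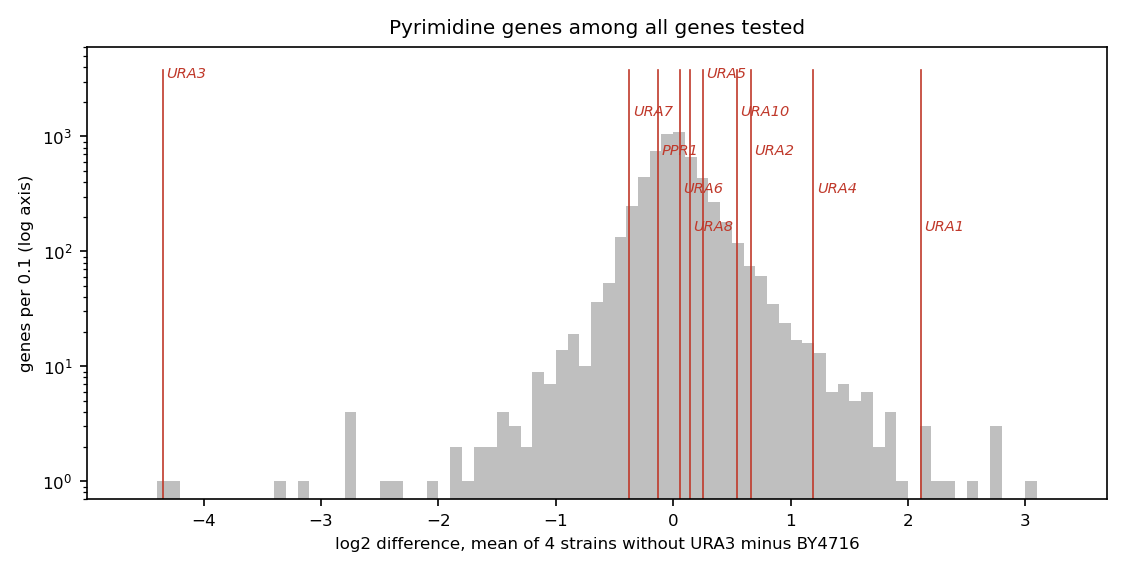
The histogram counts genes by the log2 difference between the mean of the 4 strains without URA3 and BY4716, in bins of 0.1 with a log vertical axis, and red lines mark the pyrimidine genes. URA1 at 2.11 and URA4 at 1.19 lie in the upper tail, URA3 is at the far left, at -4.35 with its low signals near the floor of the measurement, and PPR1, URA6 and URA8 lie in the centre.

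Counts of calls must be read against a high background, because the strains differed widely. Of the 9 genes other than URA3, 6 were called in RM11-1a, where 63.0% of all genes were called. Of these 4 were higher and 2 lower, against 33.1% and 29.9% of all genes. In YAD350 5 of 9 were called against 47.1% of all genes, 4 higher against 26.6% and 1 lower against 20.5%. In YLK804 4 were called against 21.1%, all 4 higher against 11%, and none lower against 10.2%. The uncalled differences in YLK804 included URA10 at -0.47, URA5 at 0.26 and URA6 at 0.14. In the Cy5 channel alone these were 0.23, -0.27 and -0.20. In YLK806 7 were called against 58.5%, 5 higher against 30.2% and 2 lower against 28.3%. On the mean of the 4 strains 8 of 9 were called against 59.4%, 6 higher against 31.4% and 2 lower against 28.0%. The median difference of the 9 genes was 0.25, and it was 0.01 over all genes tested. In the comparison of RM with laboratory strains without URA3, 6 of 9 were called against 56.3%, with 3 higher against 29.2% and 3 lower against 27.1%. Between YLK806 and RM11-1a 1 of 9 was called, URA1, against 22.5% of all genes and 11.8% in its direction. The BY4716 arrays did not overlap the other 6 for 4 of 9 genes, namely URA1, URA2, URA4 and PPR1, and for 24.1% of all genes. BY4716 was the lower for 3 of them, as for 12.6% of all genes, and the higher for PPR1, as for 11.5%. In the Cy5 channel alone URA10 took the place of PPR1 among these 4, and with median centring PPR1 overlapped.

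Values within a scan day could be had for 2 pairs of strains. BY4716 replicate 9 and RM11-1a replicate 9 shared a scan day, and between them URA1 differed by 2.18, URA4 by 1.38, URA2 by 0.99 and URA10 by 1.60 on the log2 scale. YLK806 and YLK804 shared another day, and URA10 was higher in YLK806 by 1.61, URA2 by 0.46, and URA4 by 0.05. URA1 was lower in YLK806 there, at -0.37. YAD350 had a scan day of its own, so strain and day cannot be told apart for it, and neither YLK804 nor YLK806 shared a day with BY4716.

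Uptake and salvage genes, which supply pyrimidines in a strain without URA3, did not move in 1 direction. Of 10 such genes 3 were called higher and 5 lower on the mean of the 4 strains, beside 31.4% and 28.0% of all genes, with a median of -0.19 against 0.01 over all genes. FUI1, the uridine permease gene, stood at -0.85, -0.89 and -0.88 in BY4716, at 0.46, 0.75 and 0.44 in RM11-1a, at -0.26 in YAD350, at -0.28 in YLK804 and at 0.31 in YLK806. It was higher than in BY4716 in all 4 strains, by 1.42 ± 0.08 in RM11-1a, 1.18 ± 0.11 in YLK806, 0.61 ± 0.11 in YAD350 and 0.59 ± 0.11 in YLK804 (SE, adjusted p = 0.015 or below). It was lowest in BY4716 and highest in the RM strains, which exceeded the laboratory strains without URA3 by 0.70 ± 0.09 (adjusted p = 4.8e-04). FUR4, the uracil permease gene, had a mean difference of 0.14 ± 0.06 (adjusted p = 0.097). FUR1, for the enzyme that turns uracil into UMP, had a mean difference of -0.33 ± 0.04 (adjusted p = 5.0e-04). Its Cy5 signal differed from BY4716 by -0.25 in RM11-1a and -0.24 in YAD350 but by 0.23 in YLK804 and 0.04 in YLK806, where the reference channel was higher by 0.47 and 0.51. FCY2, a purine and cytosine permease gene, fell by 0.63, and its relative FCY22 fell by 0.55 (adjusted p = 1.6e-04 for each).

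Among 9 genes of nucleotide kinases and deoxypyrimidine synthesis 5 were called higher and 3 lower on the mean of the 4 strains, with a median of 0.25. This count and those of the following lists stand beside the same 31.4% higher and 28.0% lower over all genes, and a share near these is no result about a list. RNR2 and RNR4, for the small subunits of ribonucleotide reductase, had differences of 0.51 ± 0.06 and 0.36 ± 0.04 (SE), and DCD1, the dCMP deaminase gene, fell by 0.41. RNR4 was at -0.13 in the Cy5 channel alone, and RNR2 at 0.19 missed the threshold (adjusted p = 0.14). Of 8 genes of carbamoyl phosphate and arginine synthesis 5 were higher and 2 lower, with a median of 0.13. ARG8, ARG4 and ARG5,6 were higher by 0.33, 0.26 and 0.19. In the Cy5 channel alone ARG4 was at -0.07 and ARG5,6 at 0.03 (adjusted p = 0.71), and ARG8 was at 0.38 (adjusted p = 0.0020). Of 5 genes for synthesis of PRPP, the ribose donor of the Ura5 step, 1 was higher and 3 lower, led by PRS3, which fell by 0.25. Of 11 purine synthesis genes 2 were higher and 5 lower, with ADE8 and ADE1 down by 0.43 and 0.40 and ADE16 up by 0.27. ADE1 missed the threshold in the Cy5 channel alone, at -0.19 (adjusted p = 0.052).

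RIB4 had the pattern most like both URA1 and URA4 over the 9 arrays among all non-members tested. Pearson's r was 0.985 with URA1 and 0.990 with URA4. The arrays fall into groups by strain, so these values describe the likeness and carry no test. RIB4 encodes lumazine synthase of riboflavin synthesis. It was at -0.43, -0.36 and -0.48 in BY4716, at 1.09, 1.19 and 1.19 in RM11-1a, at 1.07 in YAD350, at 0.86 in YLK804 and at 0.96 in YLK806, so the 6 values of strains without URA3 all lay above BY4716. Its mean difference was 1.43 ± 0.04 (SE), between those of URA4 and URA1. The genes that followed for URA1 were YPR170C (r = 0.964), GPI1 (0.944), NEM1 (0.940) and MDH2 (0.940). YPR170C was not well above background in BY4716, and its mean difference of 0.06 was not called. For URA4 they were NEM1 (r = 0.969), MIG1 (0.955), ADD37 (0.948) and YOR088W (0.944). Of these, MDH2, for a malate dehydrogenase, had a mean difference of 1.07 ± 0.09, and NEM1, MIG1 and YOR088W had differences of 0.14, 0.26 and 0.14. NEM1 was at 0.05 in the Cy5 channel alone (adjusted p = 0.47).

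The genes with the largest mean rises whose BY4716 arrays did not overlap the other 6 varied more between strains than URA1 did. STE6, the exporter of a-factor, had a mean of 3.02, from differences of 3.81 in RM11-1a, 3.85 in YLK806, 0.31 in YAD350 and 4.10 in YLK804. PHM7, INO1, CTT1 and HSP12 followed, at 2.71, 2.53, 2.37 and 2.71. INO1, for inositol synthesis, ranged from 0.25 in YAD350 to 4.81 in RM11-1a, and CTT1 from 0.64 in YLK804 to 4.49 in YLK806. PHM7 ranged from 0.75 in YLK804 to 4.74 in YLK806. In YLK806 its Cy5 signal differed from BY4716 by 1.61 and its reference channel by -3.14, at 1 spot. That reference value also enters the PHM7 mean of 2.71. HSP12 was at 2.83 in RM11-1a, 4.25 in YLK806, 1.89 in YAD350 and 1.87 in YLK804. On the ratio scale it was thus at least as high in each strain as the lowest URA1 difference. Its Cy5 signal differed from BY4716 by 0.99 in YAD350 and 1.02 in YLK804, where the reference channel differed by -0.90 and -0.85. The lowest Cy5 difference of URA1 was 1.80, in YLK806. URA1 ranged from 1.86 to 2.23 over the same 4 strains. The value of URA3, -4.35, rests on signals near the floor and was -6.80 with the deposited ratios. The largest falls were those of URA3, LEU2, HO, DSE1 and EEB1. LEU2 was not well above background in 3 strains, and was lower at least 19.5-fold in RM11-1a, at least 21.4-fold in YAD350 and at least 22.1-fold in YLK806, but differed by -0.10 in YLK804. HO was at least 22.3-fold lower in YLK806, where it was not well above background.

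Neighbours of URA3 on chromosome V were followed as well. TIM9, the next gene past URA3 in the R64 annotation, encodes a chaperone of mitochondrial import. It was at -0.28, -0.29 and -0.31 in BY4716, at 0.15, 0.23 and 0.35 in RM11-1a and at 0.21 in YLK806, but at -1.12 in YAD350 and -1.54 in YLK804. Both laboratory strains without URA3 lay below BY4716, and both RM strains lay above it. The differences were -0.82 ± 0.07 in YAD350 and -1.25 ± 0.07 in YLK804 (SE, adjusted p = 3.3e-04 and 8.7e-05), against 0.54 ± 0.05 in RM11-1a and 0.51 ± 0.07 in YLK806 (adjusted p = 8.2e-05 and 8.4e-04). The RM strains exceeded the laboratory strains without URA3 by 1.56 ± 0.06 (adjusted p = 9.3e-07).

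On the other side GEA2 differed from BY4716 by -0.40 in RM11-1a and -0.37 in YLK806 and by 0.09 and 0.06 in YAD350 and YLK804, and only the first 2 were called. RIP1, a subunit of respiratory complex III, was higher by 1.62 ± 0.15 in RM11-1a and 1.86 ± 0.21 in YLK806 (SE), and not called in YAD350 or YLK804. In the Cy5 channel alone it was higher in those strains too, by 0.67 and 0.72 (adjusted p = 0.042 and 0.037), and GEA2 was at -0.34 in YAD350. YEL023C had log2 ratios lower by 0.15 to 0.33 in the 4 strains, and missed the threshold in YLK804 (adjusted p = 0.055). Its Cy5 signal differed from BY4716 by -0.24 in RM11-1a, but by -0.08, 0.03 and -0.02 in YLK806, YLK804 and YAD350. On these last arrays the YEL023C reference channel was higher than in BY4716, by 0.25, 0.18 and 0.16 in the same order. YEL020C was higher in RM11-1a alone, by 0.22 (adjusted p = 0.0053). MMS21 had no signal well above background on the arrays of RM11-1a and YLK806 and was called in no strain, with unadjusted p from 0.20 to 0.83 in limma.

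**Figure D5:**
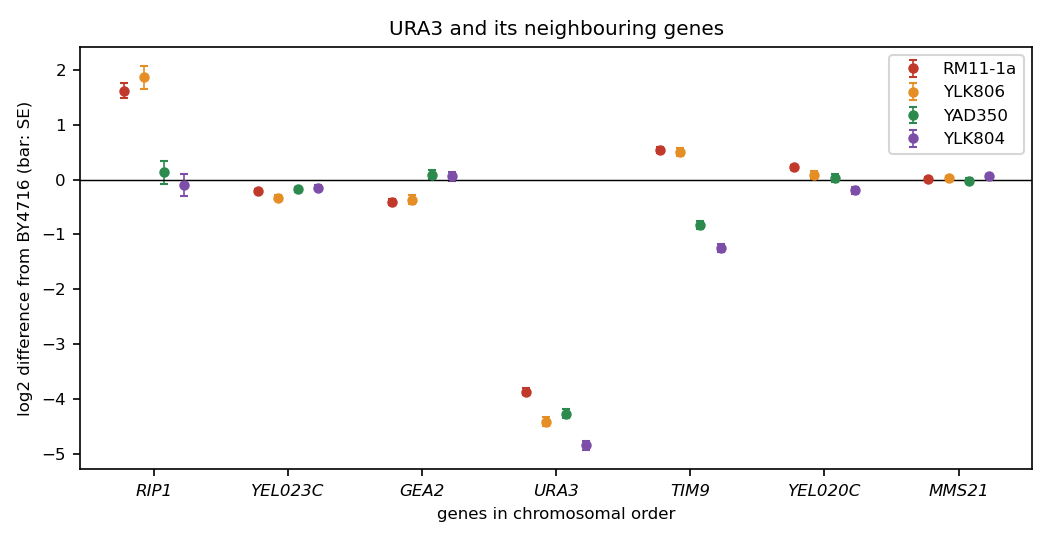
Points give the log2 difference of each strain without URA3 from BY4716 for URA3 and 6 genes beside it in chromosomal order, with bars for the SE of the fit. TIM9 lies below 0 in YAD350 and YLK804, at -0.82 and -1.25, and above 0 in RM11-1a and YLK806, at 0.54 and 0.51.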

How the data were processed

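RNA of 5 strains was measured on 9 Agilent yeast arrays, 1 per sample. The deposited scanner files give each spot's intensity and local background in Cy5 and Cy3. Per the file headers, Feature Extraction read the images, in version 9.1.3.1 for the YLK804 and YLK806 arrays and in 8.5.1.1 for the rest. The deposited log10 ratio in these files was made by the same software with background subtraction and lowess, per the file headers. The deposited series table of log2 ratios matched it within 0.0005, with column medians from 0 to 0.008.

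Mean signals were corrected with normexp (offset 50, which draws ratios toward 0) and loess within arrays in limma 3.58.1 under R 4.3.3. Control and outlier-flagged spots were left out, and spots were averaged per systematic name. A 5-group lmFit with eBayes (4 residual degrees of freedom) was tested on simulated data. A gene was called at a Benjamini-Hochberg adjusted p under 0.05 over all genes tested. The 10 strain pairs were adjusted over genes, not over pairs. SE is that of the fit. Array number limits precision, and median Cy5 signals lay between 237 and 424 over backgrounds between 25 and 32. Alternatives covered background correction, normalization, filters, channel, scan day, slide, replicate number and leaving out parental arrays one at a time.

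The members and lists were chosen with earlier results of these data known. Named were the members, the 3 genes of smallest p per list, all neighbours of URA3, the 5 genes most like URA1 and URA4, and the 5 largest non-overlapping rises and falls. FUR4 and FUR1 were chosen after their values were seen. The values of a further gene are not reported here. An "at least" fold divides the BY4716 mean by the mean of, per array, the gene's signal or the lowest well-above-background signal, whichever was higher. It used single channels after loess and Aquantile, where dye bias is possible without swapped dyes. Probe mismatches to RM11-1a were not checked.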

Additional observations from a re-analysis of the deposited data

How the results depend on the processing

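Differences of the 9 pathway genes other than URA3 in 7 comparisons were recomputed under 17 alternatives, which gave 1071 values. Without a change of sign 42 of them lost the call and 17 gained it. A sign changed in 33 values, 15 of them in the Cy5 channel alone. No sign could change with the intensity trend or the filters, or where the array left out was outside the comparison. Of these 33, 7 were called before or after the change, all in that channel, and the other 26 were called under neither setting. URA1 and URA4 were called higher in all 4 strains under every alternative, and URA2 under all but the Cy5 channel alone in YAD350. The 7 were URA6 at -0.047 in YAD350 and -0.19 on the mean of the 4 strains, PPR1 at 0.21 in YLK806, 0.043 on the mean and 0.28 between YLK806 and RM11-1a, URA5 at -0.016 on the mean, and URA4 at -0.00082 between the RM and laboratory strains. The uncalled changes in that channel included URA5 at -0.27, URA6 at -0.20, PPR1 at 0.13 and URA10 at 0.23 in YLK804. Outside the pathway, values called before or after a change of sign there were GEA2 at -0.34 in YAD350, RIP1 at 0.72 in YLK804, ARG4 at -0.066 and RNR4 at -0.13 on the mean, and YEL023C at 0.21 between YLK806 and RM11-1a. The cause was not tested.

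The number of these 9 genes called between YLK806 and RM11-1a was 1, 0 with the deposited ratios and 3 in the Cy5 channel alone. In YAD350 it was 5, and 3 in the Cy5 channel alone. On the mean of the 4 strains it was 8, and 5 with median centring. With single parental arrays left out it ranged from 5 to 7 in RM11-1a, 4 to 6 in YAD350, 3 to 5 in YLK804, 6 to 8 in YLK806 and 7 to 8 on the mean, and from 1 to 2 between YLK806 and RM11-1a, where it was 2 without BY4716 replicate 9 or RM11-1a replicate 7. The count of genes whose arrays did not overlap was 3 with median centring and 4 under the other 9 settings for which it was counted. Among these settings the filters, the intensity trend and the blocks by scan day or replicate leave the log2 ratios unchanged. They therefore did not test the overlap.

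Over all genes, YLK804 had 1240 calls, and 629 with median centring, 590 without BY4716 replicate 7 and 623 without BY4716 replicate 11. Those 2 arrays shared a slide, and averaging them, an alternative added after seeing the data, gave 639. Between YLK806 and RM11-1a there were 1320 calls, and 800 with median centring, 2124 in the Cy5 channel alone, and 867 and 856 without BY4716 replicate 7 or 11. Deviations of BY4716 and RM11-1a arrays of the same replicate number had r of -0.209, 0.137 and -0.176 for numbers 7, 9 and 11. Between arrays of different numbers r ran from -0.232 to 0.334. With so few arrays per strain, these values cannot decide whether the numbers pair the arrays. With a replicate block the calls were 688 and 748 in these 2 comparisons. In that block URA1, URA4 and URA2 were called in all 4 strains, and the PPR1 calls in RM11-1a and YLK806 were lost (adjusted p = 0.062 and 0.058). The correlation of arrays within a scan day, as a random block, was 0.271. The search for a Ppr1 motif in promoters was not run, since no promoter sequences were used here. Signal over background limits PPR1, URA10 and the strains' URA3 values.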
